A study of Mus musculus with 4 samples.

Results

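The genes described here are 10 regulators of gene expression in meiotic and postmeiotic germ cells, taken by name from the 22311 genes listed for each sample. They are the transcription factors Mybl1, Crem and Sox30, the CREM coactivator Fhl5, the testis relatives of general transcription factors Gtf2a1l, Taf7l and Tbpl1, and the RNA regulators Boll, Papolb and Ddx25. Each symbol had 1 entry in every sample, and all 10 genes passed the filter on low values. RNA-seq was performed on whole testes of 24-day-old male mice, with 2 samples homozygous for a targeted Rfx2 allele (rfx2-/-, called mutant 1 and mutant 2) and 2 control samples. The controls are wild type by their labels, which name DBA as the strain of all 4 samples, whereas the study's methods describe heterozygous controls and a mixed genetic background. The targeted allele was made in a single embryonic stem cell clone by replacing exons that encode the DNA-binding domain of RFX2, and the knockout is conventional, so every cell type of the mutant mice carries it. The study describes the samples of each genotype as independent biological samples. Expression is given as FPKM, the deposited measure of fragments normalized for gene length and sequencing depth.

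Spermatids are haploid cells that transcribe a large program of testis-specific genes and then store many of the messages for translation after transcription has ceased. This program uses its own versions of the transcription machinery. MYBL1 (A-MYB) activates genes of pachytene spermatocytes, CREM binds cAMP response elements in the promoters of spermatid genes, and FHL5 (ACT) is a LIM-domain protein that activates CREM without its phosphorylation. SOX30 is an HMG-box factor of late spermatocytes and round spermatids. GTF2A1L (ALF) is the germ cell form of the large subunit of TFIIA, which stabilises the TATA-binding protein TBP on promoters. TBPL1 (TRF2) is a relative of TBP that also associates with TFIIA, and TAF7L is a relative of the TFIID subunit TAF7. BOLL is an RNA-binding protein of the DAZ family, PAPOLB (TPAP) is a cytoplasmic poly(A) polymerase and DDX25 (GRTH) is an RNA helicase that takes part in the export and translation of spermatid messages.

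The promoter of Gtf2a1l is shown first, because Gtf2a1l was the regulator whose level differed between the genotypes. The gene (ENSMUSG00000024154.4) lies at chr17:89068000-89114492 (plus strand, NCBIM37, the mm9 assembly), with 2 protein-coding transcripts in GENCODE M1. The 250 bases before its start, from RefSeq (GRCm38.p6), matched NCBIM37 exactly at chr17:89067750-89067999, plus strand, and overlap no annotated transcript of the gene. Capitals mark the only stretch that matches the X-box, the motif bound by RFX proteins, with 1 mismatch. Both strands were searched.
Gtf2a1l: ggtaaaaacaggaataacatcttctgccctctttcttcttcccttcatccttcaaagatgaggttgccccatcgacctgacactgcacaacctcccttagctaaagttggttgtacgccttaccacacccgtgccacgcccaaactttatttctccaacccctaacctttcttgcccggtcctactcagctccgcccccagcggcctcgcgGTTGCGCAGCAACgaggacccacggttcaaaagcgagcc
This site, GTTGCGCAGCAAC, spans chr17:89067961-89067973, from -39 to -27 relative to the start. Its mismatch is C6G, given as the base of the motif, the position counted from 1 at the 5′ end of the site, and the base of the site.

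The 120 bases before the start of 3 regulators that were not called, Papolb, Sox30 and Ddx25, are shown for comparison. They come from the same RefSeq table and matched NCBIM37 at chr5:143006031-143006150 (minus strand), chr11:45793692-45793811 (plus strand) and chr9:35366056-35366175 (minus strand). None of them holds the X-box with at most 1 mismatch, so they have no capitals. Boll, also not called, holds such a match, which is given below, and its stretch is not printed.
Papolb: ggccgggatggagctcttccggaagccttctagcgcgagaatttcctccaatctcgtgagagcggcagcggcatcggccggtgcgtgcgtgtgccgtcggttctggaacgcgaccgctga
Sox30: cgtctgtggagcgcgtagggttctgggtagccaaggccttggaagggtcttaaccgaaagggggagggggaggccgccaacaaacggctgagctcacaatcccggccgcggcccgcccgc
Ddx25: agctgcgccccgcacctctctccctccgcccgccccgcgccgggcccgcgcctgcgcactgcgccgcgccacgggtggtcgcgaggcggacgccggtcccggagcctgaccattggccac
RefSeq windows of 300 bases (250 before to 50 after the start) were held for 8 of the 10 regulators, 10 windows in all. The other 2 are Mybl1 and Crem.

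The X-box without mismatch was in none of the 10 windows and in 1.53% of the 32851 windows of the table. With at most 1 mismatch it was in 2 of the 10 windows and in 11.3% of all windows. The second gene with such a match was Boll, whose site GCAGCCTGGTAAC at chr1:55419658-55419670 (minus strand), from -98 to -86 of the second of its RefSeq starts, has the mismatch T2C. Boll was not called in the comparison below, so such a match was found both in the regulator that differed and in one that was not shown to differ. The cAMP response element TGACGTCA, which CREM binds, was in none of the 10 windows and in 1.79% of all windows. Its core TGACG was also in none of them, against 20.8% of all windows. Of the other letters searched on both strands, the SOX site AACAAT was in 1 window, that of Fhl5 (10.7% of all windows), TATAAA in 1 window, that of Taf7l (13.6%), CAACGG, a MYB site, in 1 window, that of Boll (5.12%), and the MYB site TAACGG in none (2.76%). Such matches describe the letters of these windows and are not evidence of binding.

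Rfx2, the targeted gene, had FPKM of 36.7 and 39.8 in mutant 1 and 2 and 123 and 89.4 in control 1 and 2, a log2 fold change of -1.43 for the gene as a whole (Benjamini-Hochberg adjusted p = 0.00617, limma). Defining markers of testis cells were present in every sample, such as Sycp3 of spermatocytes, with FPKM between 152 and 203. Mutant 1 stood apart in late spermatid transcripts. The 10 elongating spermatid markers summed to 1632 FPKM in mutant 1, against 7296 in mutant 2 and 8425 and 5827 in control testes, and each of the 10 was lowest in mutant 1, where 17.7% of all genes tested were. Each comparison is therefore also given without mutant 1 where a result rests on it. The samples are whole testes, so fewer cells of a type and less RNA per cell cannot be told apart. Where the authors' confidence bounds are the measure of precision, their half-width was between 1.69% and 7.89% of the FPKM of a regulator, and they cover estimation within a sample only.

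Among the 10 regulators, Gtf2a1l was lower in mutant testes and the other 9 were not called. Its FPKM was 47.3 in mutant 1 and 61.9 in mutant 2, with control 1 at 164 and control 2 at 141. Both mutant samples lay far below both control samples, and the means of 54.6 ± 10.3 and 152 ± 16.8 FPKM (SD, n = 2 samples each) put the mutant level at 35.8% of the control level. The log2 fold change was -1.47 (standard error 0.19, 95% interval -1.92 to -1.03, Benjamini-Hochberg adjusted p = 0.00487 over 12985 genes, limma), larger than the spread between replicates. In this fit 2.52% of all genes tested were called lower in mutant testes and 0.308% higher, 2.83% in either direction, against 1 and 0 of the 10 regulators. The authors' confidence bounds of Gtf2a1l reached up to 64.5 FPKM in the mutant samples and were far below the control values.

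Relative to the control mean on the log2(FPKM + 1) scale, Gtf2a1l was at -1.66 in mutant 1 and -1.28 in mutant 2. Without mutant 1, the sample low in elongating spermatid markers, the adjusted p from limma was 2.73e-05, in a fit where the lone mutant sample is assumed to vary like the controls. The call was lost without a filter on low values (limma adjusted p = 0.0535), a setting that cannot change the size of the difference. With median-ratio scaling of the samples it was also lost (limma adjusted p = 0.0706, log2 fold change -1.49). Without control 1 the call was again lost (log2 fold change -1.36). In the same settings Rfx2 itself lost its call.

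**Figure D1:**
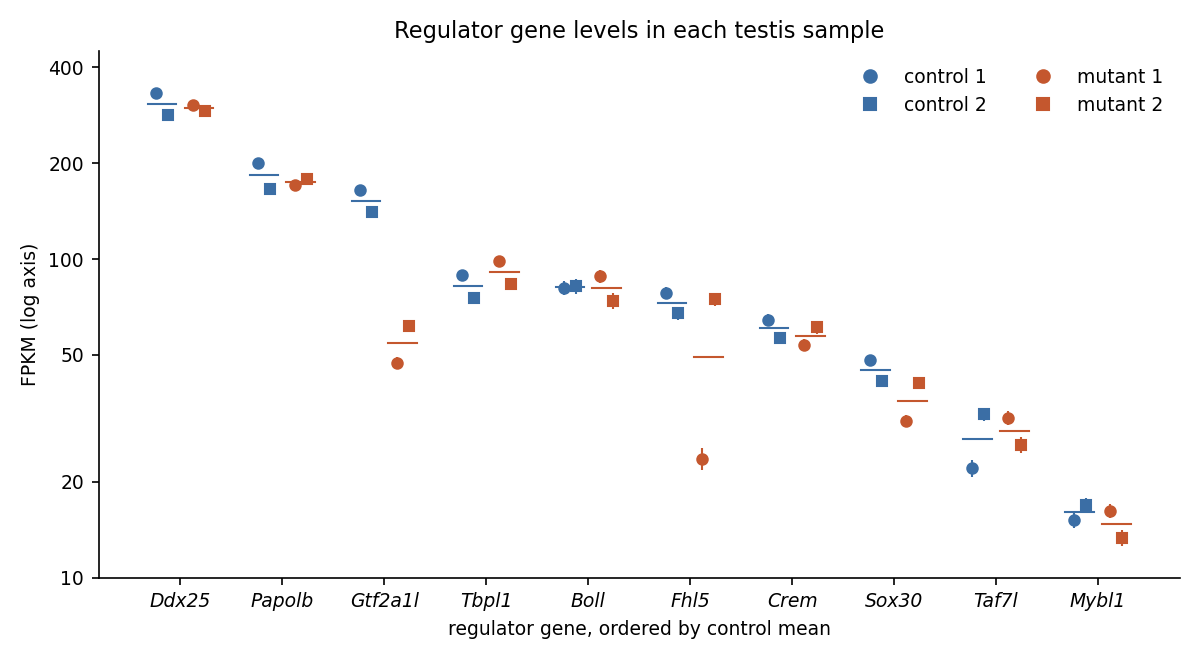
FPKM (log axis) of the 10 regulators in control 1 and 2 (blue) and mutant 1 and 2 (orange), ordered by control mean; circles are replicate 1, squares replicate 2, vertical bars the authors' confidence bounds within a sample and horizontal lines the group means. Gtf2a1l falls from 164 and 141 in the controls to 47.3 and 61.9 in the mutants, and Fhl5 is low in mutant 1 alone (23.6).

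The related gene of Gtf2a1l, the widely expressed Gtf2a1, had FPKM of 10.7 and 9.45 in mutant testes and 8.65 and 12.2 in control testes, so the genotypes overlapped (log2 fold change -0.03, 95% interval -0.55 to 0.49). In control testes the FPKM of Gtf2a1l was 19.0 and 11.5 times that of Gtf2a1, and in mutant testes 4.43 and 6.54 times. Gtf2a1l therefore remained the more abundant of the pair in every sample. As a share of the summed FPKM of both genes, it was 81.6% and 86.7% in mutant testes against at least 92.0% in both controls. The genotypes did not overlap in this share, nor in those of Sox30 (mutant below) and Tbpl1 (mutant above) with their related genes.

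The gene upstream of Gtf2a1l, Ston1, was examined after its values were seen. Ston1 encodes stonin 1, a protein related to endocytic adaptors, and it ends 6073 bases before the start of Gtf2a1l on the same strand. Its FPKM was 10.4 and 14.6 in mutant testes and 4.97 and 6.28 in control testes, so that both mutant samples lay above both controls. The log2 fold change was 1.01 (standard error 0.24, 95% interval 0.47 to 1.56), and the adjusted p from limma was 0.0842, above the threshold of 0.05. With robust eBayes it was 0.0125 and without mutant 1 it was 0.00229, the lowest over the alternatives, and without control 1 it was 0.573, the highest. Where a group has 1 sample left, it is assumed to vary like the other group. The next gene upstream, Klraq1, had FPKM between 3.89 and 4.35 in all 4 samples. The annotated transcripts of Ston1 and Gtf2a1l do not overlap in GENCODE M1.

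Taf7l and Tbpl1, the other relatives of general transcription factors, were not called. Tbpl1, at chr10:22423685-22451744 (minus strand, NCBIM37), had FPKM of 98.9 in mutant 1 and 83.3 in mutant 2, with control 1 at 89.3 and control 2 at 75.6. The genotypes overlapped, with a log2 fold change of 0.14 (standard error 0.18) and a 95% interval of -0.27 to 0.55, which leaves room for a fold between 0.831 and 1.47. TBP itself, the product of Tbp, is the factor that TBPL1 resembles, and Tbp had FPKM between 58.3 and 66.1 with a log2 fold change of -0.0034. The share of Tbpl1 in the summed FPKM of Tbpl1 and Tbp was 59.9% and 58.8% in mutant testes and 58.3% and 55.5% in control testes. By share, both mutant samples lay above both controls. Tbpl2, the oocyte relative of TBP, was listed at 0 in all 4 samples. Tbpl1 overlaps Slc2a12 on the opposite strand in NCBIM37, and the FPKM of Slc2a12 was at most 1.73.

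Taf7l, at chrX:130994657-131011029 (minus strand), had FPKM of 31.7 in mutant 1 and 26.1 in mutant 2, with control 1 at 22.1 and control 2 at 32.6. Both control samples enclosed both mutant samples, and the 95% interval of the log2 difference ran from -0.41 to 0.61 around 0.10. Taf7 was at 10.8 and 8.93 FPKM in mutant testes and 8.58 and 10.4 FPKM in control testes. The gene listed as 4933416C03Rik, which RefSeq names Taf7l2 and which was added after its values were seen, had a higher FPKM than Taf7l, between 94.1 and 109. Reads shared between Taf7l and this relative cannot be told apart in the deposited values.

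The transcription machinery that these proteins join was not shown to differ between the genotypes. The list held 22 genes of TFIIA, TFIIB, TFIID and relatives of TBP and of TFIID subunits. Of these, 21 were tested and none was called in limma at an adjusted p under 0.05. None reached an unadjusted p under 0.05. Their median log2 fold change was 0.09, beside 0.03 over all genes tested. The extremes were Taf10, with 0.28 (FPKM of 36.3 and 40.5 in mutant testes and 34.9 and 28.4 in control testes), and Taf11, with -0.14 (29.7 and 25.3 against 31.6 and 29.1). Both mutant samples lay above both controls for 6 of the 21 genes, where 16.3% of all genes tested did so, and below them for none, where 15.2% did.

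**Figure D2:**
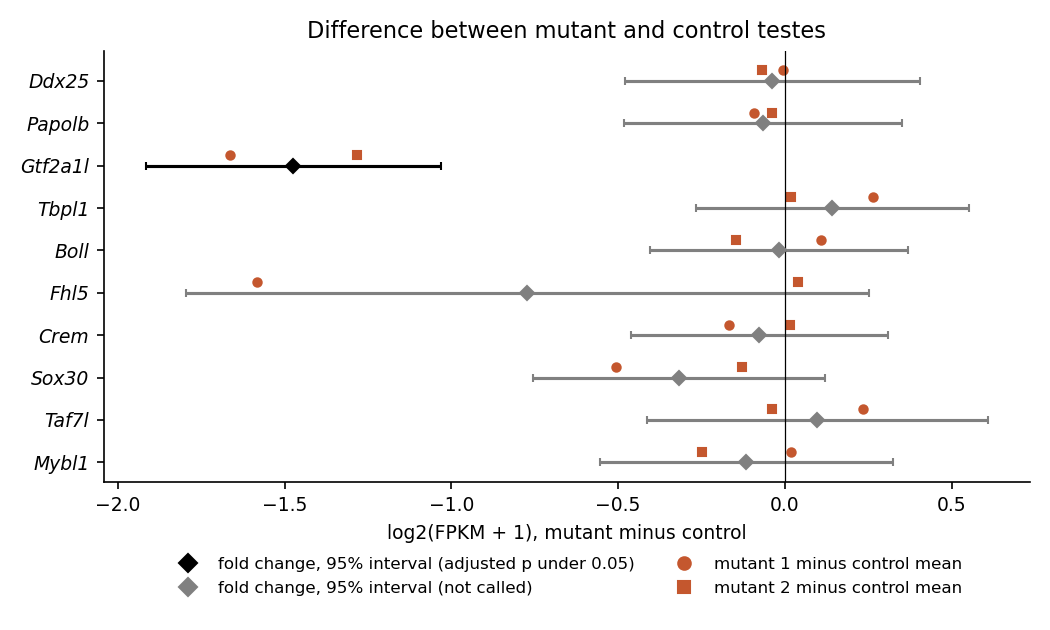
Difference between mutant and control testes for each regulator on the log2(FPKM + 1) scale: diamonds with bars are the limma log2 fold change and its 95% interval, black where the adjusted p was under 0.05, and orange symbols are each mutant sample minus the control mean. The interval of Gtf2a1l (-1.92 to -1.03) is the only one that does not include 0, and the mutant samples are far apart for Fhl5.

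The DNA-binding factors Mybl1, Crem and Sox30 were not called. Crem had FPKM of 53.7 in mutant 1 and 61.1 in mutant 2, with control 1 at 64.6 and control 2 at 56.6. The samples interleaved, and the log2 fold change was -0.08 (standard error 0.17, 95% interval -0.46 to 0.31). The FPKM is for the gene as a whole, so repressor and activator forms of CREM cannot be told apart. Its relatives Creb1 and Atf1 were also not called, with log2 fold changes of 0.09 and 0.20.

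Mybl1, at chr1:9657496-9690290 (minus strand), was the least abundant regulator, with FPKM of 16.2 in mutant 1 and 13.4 in mutant 2, with control 1 at 15.1 and control 2 at 17.0. The genotypes overlapped, with a log2 fold change of -0.12 (95% interval -0.55 to 0.32). Among its relatives, Mybl2 was at 2.77 FPKM in both mutant samples and 3.50 and 3.48 FPKM in the controls without being called (log2 fold change -0.25, limma adjusted p = 1.0). Myb was at most 0.124 FPKM and was under the filter. The 11 pachytene genes that textbook accounts place under MYBL1 were all tested and none was called (none at an unadjusted p under 0.05 either). Their median log2 fold change was 0.01. The lowest was Asz1, a piRNA pathway protein, with -0.08 and FPKM of 15.4 and 13.0 in mutant testes and 12.7 and 17.8 in control testes. The highest was Mov10l1, a helicase of the same pathway, with 0.21 and FPKM of 42.1 and 37.2 against 29.7 and 39.0.

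Sox30, at chr11:45793812-45831496 (plus strand), was the second regulator for which both mutant samples lay below both controls, where 15.2% of all genes tested did so. Its FPKM was 31.1 in mutant 1 and 40.7 in mutant 2, with control 1 at 48.1 and control 2 at 41.3. Mutant 2 and control 2 were nearly the same. The log2 fold change was -0.32 (standard error 0.19, 95% interval -0.75 to 0.12, adjusted p = 0.934 from limma), so the difference did not exceed the spread between replicates by this test. Without mutant 1 it was -0.13. The share of Sox30 in its FPKM summed with Sox5 and Sox6 was 61.2% and 55.2% in mutant testes, against 66.1% and 64.4% in controls. In mutant 2, where the share was lowest, Sox5 was at 16.3 FPKM against 8.52 to 12.8 FPKM in the other samples. Sox6 was at 16.7 FPKM in mutant 2 against 11.2 to 11.9 FPKM in the other samples.

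Fhl5, at chr4:25127055-25170023 (minus strand), differed mainly between the mutant samples. Its FPKM was 23.6 in mutant 1 but 74.8 in mutant 2, and it was 78.1 in control 1 and 67.7 in control 2. Mutant 2 lay between the controls, and mutant 1 lay below all other samples by more than 2-fold, where 3.26% of all genes tested did so. Over all samples its log2 fold change was -0.77 (standard error 0.44, 95% interval -1.80 to 0.25, adjusted p = 0.903 from limma). It was 0.04 without mutant 1. With mutant 1 as the only mutant sample it was -1.58 (adjusted p = 1.57e-10 from limma, where the lone sample is assumed to vary like the controls). With the replicate number as a block the adjusted p was 0.0151, in a fit with 1 residual degree of freedom. Of the other FHL genes, Fhl4 was the most abundant, with FPKM of 566 and 605 in mutant testes and 694 and 597 in control testes, and Fhl1, Fhl2 and Fhl3 were at most 12.3 FPKM. The share of Fhl5 in the FPKM of these 5 genes was 3.83% in mutant 1, 10.7% in mutant 2 and 9.87% and 9.81% in the controls.

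**Figure D3:**
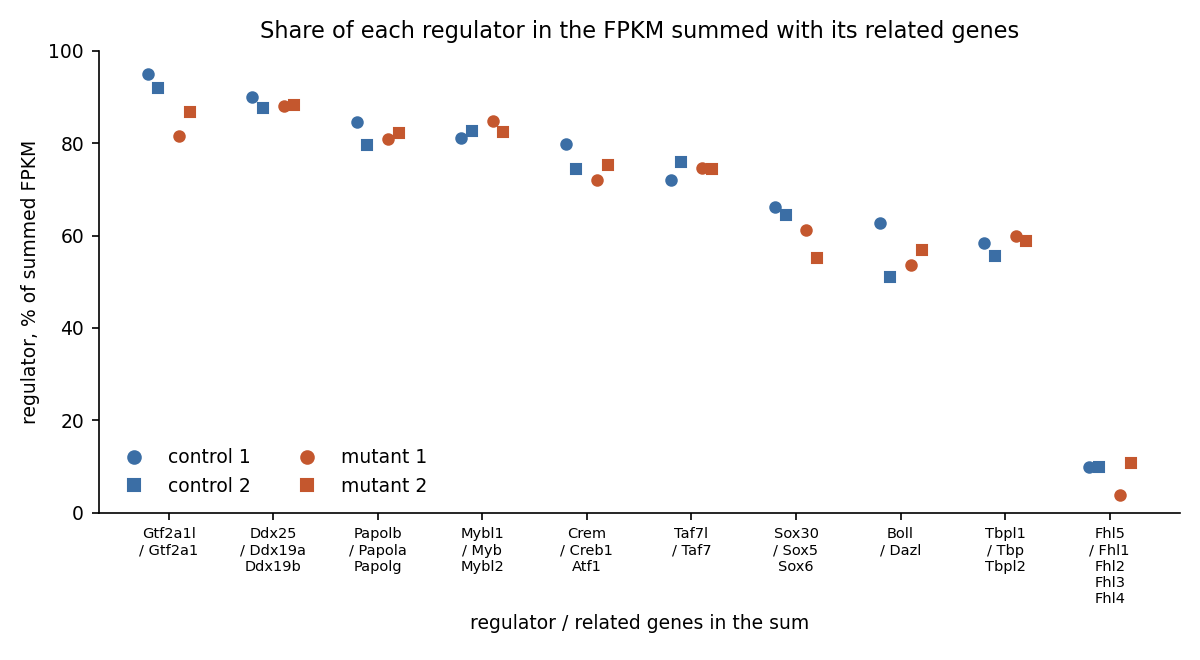
Share (%) of each regulator in its FPKM summed with its related genes, listed under each name, in control (blue) and mutant (orange) samples 1 (circles) and 2 (squares). For Gtf2a1l the mutant samples (81.6% and 86.7%) lie below the controls (at least 92.0%). Those of Sox30 also lie below the controls, and those of Tbpl1 above them. For Fhl5 mutant 1 (3.83%) is apart from the other samples.

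The spermatid genes that textbook accounts place under CREM, FHL5 and the other spermatid regulators showed the same division of the mutant samples. This list shares most of the elongating spermatid markers and some of the round spermatid markers. It is therefore not independent of those markers. Of the 17 genes, all tested, none was called in limma, and Pgk2, a glycolytic kinase, was the only one with an unadjusted p under 0.05 (log2 fold change -0.53, adjusted p = 0.453). Their median log2 fold change against the control mean was -0.76 in mutant 1 and 0.08 in mutant 2, beside 0.10 and -0.03 over all genes tested. In mutant 1, 12 of the 17 were at the lowest level of the 4 samples (17.7% of all genes tested), and 6 were at least 2-fold below all others (3.26% of all genes tested). With mutant 1 as the only mutant sample, 8 of the 17 were called lower, where 7.3% of all genes tested were, and in that fit the controls alone supply the spread. The lowest was Prm1, a protamine, with FPKM of 136 in mutant 1, 1195 in mutant 2 and 1792 and 1266 in the controls (log2 fold change -1.89, adjusted p = 0.594). The highest was Camk4, a calmodulin-dependent kinase, with FPKM of 2.07 and 4.41 in mutant testes and 2.03 and 1.76 in control testes (log2 fold change 0.50, adjusted p = 0.918).

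Most markers of spermatid stages were, like Fhl5, lowest in mutant 1. The 7 round spermatid markers summed to 545 FPKM in mutant 1, 781 in mutant 2 and 723 and 585 in the controls, and 5 of the 7 were lowest in mutant 1 (17.7% of all genes tested). The 7 spermatocyte markers summed to 469 FPKM in mutant 1, 357 in mutant 2 and 366 and 399 in the controls, with none of them lowest in mutant 1. Sertoli cell markers summed to 128 and 105 FPKM in mutant 1 and 2 and to 84.7 and 125 FPKM in the controls. Leydig cell markers summed to 417 and 234 against 368 and 134. The largest part of each Leydig sum was Insl3, at 326 and 157 FPKM in mutant 1 and 2 and 266 and 51.5 FPKM in the controls. No marker of any of these cell types was called. The part of cell composition in the value of Fhl5 was not tested.

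**Figure D4:**
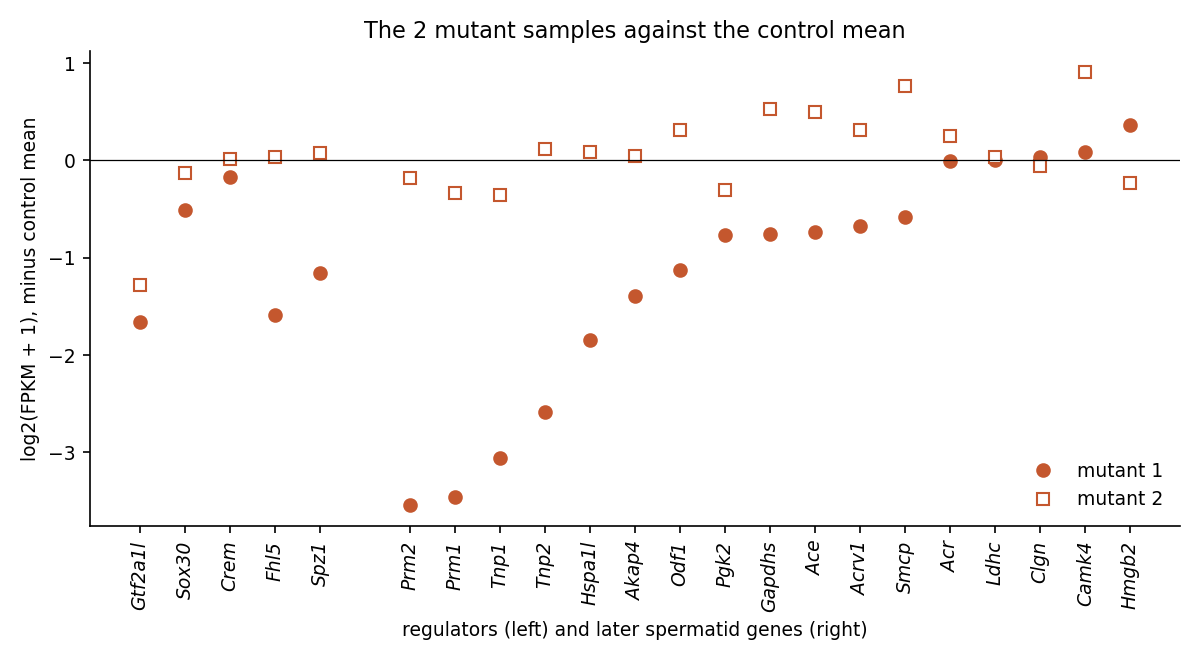
Difference of mutant 1 (filled circles) and mutant 2 (open squares) from the control mean on the log2(FPKM + 1) scale, for 5 regulators (left, Spz1 among them) and 17 later spermatid genes (right, ordered by mutant 1). Gtf2a1l is low in both mutant samples (-1.66 and -1.28), whereas Fhl5 (-1.58 and 0.04) and Prm1 (-3.46 and -0.33) are low mainly in mutant 1.

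The RNA regulators Boll, Papolb and Ddx25 were not called. Boll, at chr1:55305502-55420313 (minus strand), had FPKM of 88.2 in mutant 1 and 73.7 in mutant 2, with control 1 at 81.3 and control 2 at 82.1, so that the mutant samples lay on both sides of the controls. Its log2 fold change was -0.02 (95% interval -0.40 to 0.37). Its family member Dazl had FPKM of 76.1 and 56.0 in mutant testes and 48.2 and 78.5 in control testes. Boll overlaps a pseudogene, Gm8292, on the opposite strand in NCBIM37.

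Papolb, at chr5:143001792-143006030 (minus strand), had FPKM of 171 in mutant 1 and 178 in mutant 2, with control 1 at 200.2 and control 2 at 166. The controls enclosed the mutant samples, with a log2 fold change of -0.07 (95% interval -0.48 to 0.35). Papolb has a single exon and lies within Radil on the same strand, whose FPKM was between 19.9 and 24.2, so its value is uncertain where reads of these genes were split. The parent gene Papola, which encodes the nuclear poly(A) polymerase, had FPKM between 30.3 and 34.0, and Papolb made up 79.7% to 84.7% of the summed FPKM of Papolb, Papola and Papolg.

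Ddx25, at chr9:35349433-35366055 (minus strand), was the most abundant regulator, above at least 98.9% of the genes tested in each sample. Its FPKM was 305 in mutant 1 and 292 in mutant 2, with control 1 at 332 and control 2 at 283, again with the mutant samples between the controls. Its log2 fold change was -0.04 (95% interval -0.48 to 0.40). Ddx19a and Ddx19b, helicases that act in mRNA export in other cells, had log2 fold changes of -0.0065 and 0.08.

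Of 24 other regulators of meiotic and spermatid gene expression, all tested, none was called in limma and none had an unadjusted p under 0.05. Their median log2 fold change was 0.02. The lowest was Spz1, a spermatogenic leucine zipper factor, with FPKM of 86.7 in mutant 1, 206 in mutant 2 and 209 and 182 in the controls (log2 fold change -0.54, adjusted p = 1.0), which is the order of samples seen for Fhl5. It was the only one of the 24 more than 2-fold below the other samples in mutant 1. The highest was Brdt, a bromodomain protein of spermatocytes and spermatids, with 0.26 and FPKM of 134 and 106 in mutant testes and 111 and 90.0 in control testes. Eif4g3, a translation initiation factor, was the only 1 of the 24 whose mutant samples both lay below the controls, a share under the 15.2% of all genes tested, with FPKM of 59.8 and 62.7 against 81.2 and 73.6 (log2 fold change -0.33, adjusted p = 0.687). It was named after its values were seen.

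In control testes the order of the regulators by mean FPKM was Ddx25 (307), Papolb (183), Gtf2a1l (152), Tbpl1 (82.5), Boll (81.7), Fhl5 (72.9), Crem (60.6), Sox30 (44.7), Taf7l (27.3) and Mybl1 (16.1). FPKM is per length, so levels of these genes are set side by side, within the limits on shared reads given for Papolb and Taf7l. Tbpl1 and Boll exchanged places between the control samples, and the control values of each other pair of neighbours did not overlap. Gtf2a1l, the third in both controls, was the sixth in both mutant samples, while Ddx25 and Papolb were first and second and Mybl1 was last in all 4 samples. The median log2 fold change of the 10 regulators was -0.07, beside 0.03 over all genes tested.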

How the data were processed

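The authors aligned RNA-seq reads of 4 testis samples to mm9 with TopHat2 2.0.6 (per the labels) and assembled them with Cufflinks on the UCSC annotation. Each deposited table gives FPKM per gene, normalized for gene length and depth, with confidence bounds. Depth in counts is not in these values, and library strandedness and the counting of shared reads are not given in the sources used here. The study's Cuffdiff test cannot be run on FPKM.

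Entries sharing a symbol were summed (22311 genes). Genes reaching an FPKM of 1 in 2 or more samples (12985) were compared as log2(FPKM + 1) between mutant and control samples with limma 3.58.1 in R 4.3.3 (lmFit, eBayes with trend, two-sided, Benjamini-Hochberg adjustment over all genes tested, threshold 0.05). A fold change on this scale understates changes of low genes. The fit was also run on simulated data with independent noise in each sample, which do not cover a shift of a whole sample. With 2 samples a group, an exact permutation test cannot go below p = 0.333. The labels number replicates but do not say that numbers mark a shared litter or day. Named genes were the 10 regulators, Rfx2, their related genes, and in each other list the called genes or otherwise the highest and lowest fold change. Sycp3, Pgk2, Tnp1, Ston1, Klraq1, Eif4g3, 4933416C03Rik, Smcp, Oaz3, Hils1 and the genes overlapping regulators fall outside this rule. They were named after their values were seen. The regulators and lists were chosen with earlier results of these data known. Promoter windows are RefSeq's (GRCm38.p6), placed in NCBIM37 by exact match with python 3.11.15, and gene positions are GENCODE M1. The position and sequence of Crem are not reported here. Alternatives were pseudocounts, filters, scalings, eBayes settings, replicate blocks, the highest entry per symbol and each sample left out.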

Additional observations from a re-analysis of the deposited data

How the results depend on the processing

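With 2 samples a group, each gene's spread has 2 residual degrees of freedom, and a replicate block leaves 1. Without a filter, with a filter at an FPKM of 5, with median-ratio scaling and with the replicate block, 199, 202, 216 and 525 genes were lower, against 327 in the fit reported, and 17, 17, 16 and 70 were higher, against 40. Robust eBayes gave 67 higher genes. Leaving out a sample gave 167 to 948 lower and 13 to 162 higher genes, with 948 lower without mutant 2. Of the 10 regulators, 0 were lower without a filter and 0 with median-ratio scaling, and 2 with the replicate block (Gtf2a1l and Fhl5). Leaving out a sample gave 0 (without control 1) to 2 (without mutant 2). The log2 fold change of Gtf2a1l was -1.47 without a filter (adjusted p = 0.0535 from limma) and -1.49 with median-ratio scaling (0.0706), and between -1.66 and -1.28 with a sample left out, with its call lost without control 1 (0.0628). Across the 4-sample fits it was called in 10 of 12, its log2 fold change between -1.49 and -1.47. Filters, eBayes settings, replicate blocks and the highest entry per symbol cannot move this fold change. Its narrow range therefore rests on the pseudocounts and scalings only. The cause of these losses was not tested.

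Signs changed for regulators that were not called. Boll was at 0.0073 with quantile normalization and between -0.15 and 0.11 with a sample left out. With a sample left out, the log2 fold change lay between -0.25 and 0.017 for Mybl1, -0.17 and 0.017 for Crem, -1.58 and 0.040 for Fhl5, -0.17 and 0.37 for Taf7l, -0.20 and 0.067 for Papolb and -0.15 and 0.078 for Ddx25. Samples with the same number deviated in opposite ways on balance (correlation across genes -0.15), so a crossed replicate block was added after seeing the data. It called 266 genes lower and 28 higher, and 1 of the 10 regulators. The replicate block from the labels moved the counts as given above, and among the regulators only the call of Fhl5 changed.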

Other observations

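Of the 10 elongating spermatid markers, 5 were above both controls in mutant 2, 3 lay between the controls, and 2 (Prm1 and Tnp1) were below both. The 3 with the largest difference of mutant 2 above the control mean, chosen after their values were seen, were Oaz3, Smcp and Hils1. Smcp, a capsule protein of sperm mitochondria, had FPKM of 705 in mutant 2 against 466 and 369 in the controls and 276 in mutant 1. Oaz3, the antizyme of haploid germ cells, had FPKM of 554 in mutant 2 against 333 and 287 in the controls and 221 in mutant 1. Hils1, a spermatid linker histone, had 461 FPKM in mutant 2 against 308 and 257 in the controls and 192 in mutant 1. None of these genes was called between the genotypes (adjusted p = 1.0 for each from limma), and the difference between the mutant samples has no replicate check.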
